A study of Mus musculus with 2 samples.

Results

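The histone genes examined here were the genes of the deposited count matrix whose names begin with H1f, H2ac, H2bc, H3c, H4c or the older Hist1h to Hist4h and that had at least 20 UMIs (unique molecular identifiers, each standing for 1 captured transcript) over all cells. Of 65 genes named this way, 63 reached that minimum, out of 20282 genes in the matrix, and the 2 below it were H2ac14 and H2ac19. They comprised 8 linker histone genes (H1) and, among the core histones, 17 genes of H2A, 15 of H2B, 11 of H3 and 12 of H4. The study compared thymocytes of control mice, Cdc42f/f (WT), with those of Cdc42f/f CD4Cre mice (KO) by droplet single-cell RNA-seq, to ask how loss of the small GTPase Cdc42 changes gene expression in T lineage cells, in a study of the microvilli on their surface. Thymi of 5 littermates of each genotype, 6 weeks old, were pooled into 1 library per condition. The WT mice carry the floxed alleles as well and lack only the Cre, which the CD4 promoter drives, so that recombination starts at the double-positive (DP) stage and not in earlier cells or in cells outside the T lineage. With 1 pooled library of each kind, no test between WT and KO is possible and cells were not used as replicates. The 95% intervals given below are exact and cover counting error only, so a difference outside them holds for these 2 libraries and not for the genotypes.

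Histones are the proteins that DNA is wound on. H2A, H2B, H3 and H4 form the core of the nucleosome and H1 binds the linker DNA between cores. Most of their genes are replication-dependent: they lie in clusters, lack introns, are transcribed mainly in S phase, and give mRNAs that end in a conserved stem-loop in place of a poly(A) tail, which the stem-loop binding protein Slbp recognises. H1f0 and H1f10 are replication-independent and polyadenylated, and some clustered genes can also give polyadenylated transcripts. The libraries used here were primed on poly(A), so a UMI of a replication-dependent gene stands for a transcript that was captured in spite of its usual end, and the values below are captured levels and not the full mRNA pool. In the thymus, cells that have just passed β-selection proliferate as DP blasts and then become small resting DP cells, of which those that receive a T cell receptor signal go on to the single-positive (SP) stage.

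The WT library held 6115 cells and 29706197 UMIs and the KO library 7568 cells and 37920214 UMIs, with medians of 3192 and 3401 UMIs per cell, and 17 cell barcodes occurred in both. Cdc42 itself was at 398 UMIs per 1000000 UMIs (CPM) in WT and 356 CPM in KO, but loxP sites flank exon 2 and the libraries read transcript ends, so this level does not check the deletion. The 19 deposited clusters were grouped by genes that are not histones. By level, 7 were cycling, with at least 4 times the median of Mki67 plus Top2a, 5 were resting DP by Rag1, 2 were signalled DP by Cd5 and 2 were SP by Itm2a or Ms4a4b, while 382 cells lay in clusters of no group. Mki67, the proliferation antigen, was at 1012 CPM in WT and 1026 CPM in KO cycling clusters and at 7.27 and 7.94 CPM in resting DP, and Rag1, the recombinase of DP cells, was at 2925 and 2755 CPM in resting DP against 80.9 and 149 CPM in SP. Cycling clusters held 16.1% of WT cells (15.2 to 17.1) and 15.02% of KO cells (14.2 to 15.8). One of them, cluster 8, consists of cells with a median of 1082 UMIs of which 16.1% were mitochondrial, and another, cluster 17, has 52 cells with a median of 1168 UMIs, so both are thinly covered.

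The feature that sets these mRNAs apart is the stem-loop, and 8 versions of its 16 bases were found in the GENCODE vM21 transcript models (GRCm38) of 41 histone genes. Only strings of a fixed pattern of 16 bases were sought, so stem-loops of another form would be missed. The 5 forms with most UMIs are printed 5′ to 3′ with the 4-base loop in capitals, since H4 genes have stems that the other families do not share.
Form of 22 genes of H1, H2A, H2B and H3: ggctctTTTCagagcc
Form of 6 genes of H4: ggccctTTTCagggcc
Form of 6 genes of H1, H2B and H3: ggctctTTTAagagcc
Form of H2ac20: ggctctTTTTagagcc
Form of H4c9 and H4c14: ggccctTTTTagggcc
The first form stands in H1f4, H1f3, H1f2, H2ac8, Hist1h2ap and H2bc11 among others and covers 203365 of the members' UMIs. The form with a cytosine-rich stem belongs to H4 genes such as H4c4 and H4c8 and covers 74161 UMIs. The third, with an A in the last place of the loop, is that of H3c3 and H3c6. In 21 other genes placed in the annotation, H1f5 and H1f1 among them, the transcript model holds no stem-loop of the pattern sought, and many of these models stop at the coding end.

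RefSeq promoters (250 bases before to 50 after the start, GRCm38.p6) were given for 49 of the 63 genes. Those of 4 genes are printed on their coding strand, with matches on either strand in capitals to the TATA box written TATAAA, to the CCAAT box and to the octamer motif ATTTGCAT, none of which overlap here: those of the H1 and H4 genes with most UMIs, 1 shared by a divergent H2A and H2B pair, and that of H1f0, which differs from the rest in its profile.
H1f5, chr13:21780576-21780875, minus strand: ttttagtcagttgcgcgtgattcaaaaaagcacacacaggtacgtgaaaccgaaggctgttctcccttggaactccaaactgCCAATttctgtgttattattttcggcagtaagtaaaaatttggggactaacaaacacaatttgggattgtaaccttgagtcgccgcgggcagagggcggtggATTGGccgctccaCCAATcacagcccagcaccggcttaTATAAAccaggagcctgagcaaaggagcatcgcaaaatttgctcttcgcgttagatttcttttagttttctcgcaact
H4c4, chr13:23581318-23581617, plus strand: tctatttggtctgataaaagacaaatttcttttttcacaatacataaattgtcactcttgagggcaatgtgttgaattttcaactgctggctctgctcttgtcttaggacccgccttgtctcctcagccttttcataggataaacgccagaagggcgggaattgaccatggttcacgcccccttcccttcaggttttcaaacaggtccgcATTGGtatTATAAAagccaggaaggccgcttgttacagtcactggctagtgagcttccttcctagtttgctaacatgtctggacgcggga
H2ac8, chr13:23571171-23571470, minus strand: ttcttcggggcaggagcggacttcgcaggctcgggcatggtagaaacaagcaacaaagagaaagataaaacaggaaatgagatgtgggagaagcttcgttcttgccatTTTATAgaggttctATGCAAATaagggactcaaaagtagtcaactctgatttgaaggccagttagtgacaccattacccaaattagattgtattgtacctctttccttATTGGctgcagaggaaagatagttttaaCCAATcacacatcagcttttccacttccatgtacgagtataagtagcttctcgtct
H1f0, chr15:79027962-79028261, plus strand: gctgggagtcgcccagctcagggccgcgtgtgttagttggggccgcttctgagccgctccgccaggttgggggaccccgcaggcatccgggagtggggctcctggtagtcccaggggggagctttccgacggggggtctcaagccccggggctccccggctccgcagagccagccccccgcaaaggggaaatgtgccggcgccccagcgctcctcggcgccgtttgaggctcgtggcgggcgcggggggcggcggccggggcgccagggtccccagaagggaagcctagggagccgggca
TATAAA was in a promoter of 57.1% of these 49 genes and in 13.6% of all 32851 promoters of this length. For CCAAT the shares were 83.7% and 37.4%. The histone shares count genes with a match in any of their promoters, while the shares over all count single promoters. Every H2A, H2B and H3 gene had CCAAT in a promoter (12, 11 and 9 genes), while 3 of 9 H4 genes did. The octamer was in a promoter of 5 of 12 H2A and 6 of 11 H2B genes. It was in none for the 8 H1, 9 H3 or 9 H4 genes, and in 1.74% of all promoters. In H1f5 the TATAAA match starts 28 bases before the transcript start and in H4c4 32 bases before it, and the H1f0 window holds none of the motifs. A match is a string of letters and not a shown binding site.

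Together the 63 genes gave 469770 UMIs, 0.695% of all. Their summed level spanned from 33273 CPM in cluster 10 to 529 CPM in cluster 7. The levels of 4 cycling clusters stood far above the rest, and after cluster 10 came cluster 12 at 20205 CPM, cluster 17 at 17709 CPM and cluster 18 at 14608 CPM. No other cluster passed 2702 CPM, the level of cluster 13. Neighbours in this order differed beyond their counting intervals, except clusters 3 and 8, the run of clusters 11, 2, 1 and 0, clusters 16 and 14, and clusters 5 and 9. Cluster 13, a cycling cluster with a high G2 and M phase list (25999 CPM against 1188 CPM for the S phase list), and cluster 11, a cycling cluster with 7222 CPM of S phase list UMIs and a median of 15147 UMIs per cell, were far below clusters 10 and 12. The G2 and M phase list was higher still in cluster 10, at 38214 CPM, beside 6619 CPM of S phase list. In cluster 12 these lists stood at 16449 and 8918 CPM, and cluster 11 held 12464 CPM of G2 and M phase list. In histone level the resting DP clusters held 1763 to 2493 CPM, a range that includes cluster 11 at 1855 CPM and ends below cluster 13, signalled DP 1002 and 955 CPM and SP 583 and 529 CPM. In resting DP as a whole the level was 2.02 times that of signalled DP and 3.58 times that of SP, and the families differed in this last ratio, from 4.34 times for H1 to 2.30 times for H4. The clusters were formed from these cells with histone genes among the inputs, so these levels are a description.

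**Figure D1:**
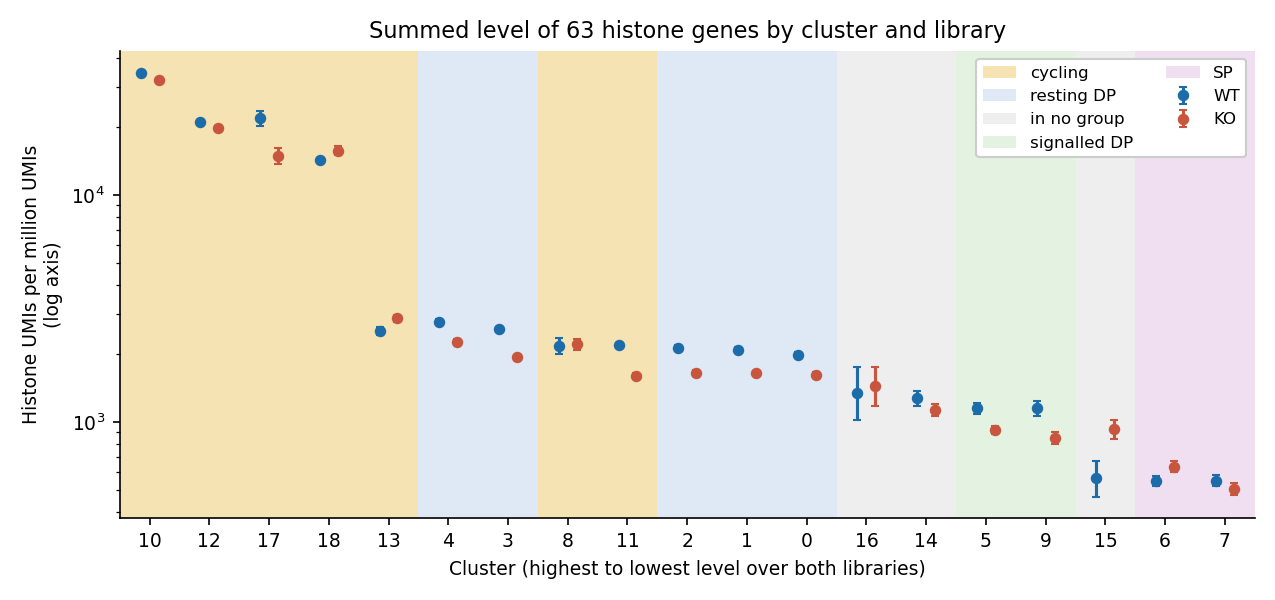
Summed level of the 63 histone genes (CPM, log axis) in each of the 19 clusters, from the highest to the lowest, with WT in blue and KO in red, bars as exact 95% counting intervals and shading by group. Clusters 10, 12, 17 and 18 lie at 14256 CPM or more in each library, while all others, including the cycling clusters 13, 8 and 11, lie at 2869 CPM or less.

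Cell by cell the picture was the same. In cluster 10 a median of 3.42% of a cell's UMIs came from histone genes, with the middle 50% of cells between 2.74% and 4.26% and a highest cell at 6.96%, and in cluster 12 the median was 2.14%. In clusters 11 and 13 the medians were 0.169% and 0.252%, and in cluster 0, the largest resting DP cluster, 0.154%. After each cell was thinned to 1000 UMIs, all 463 cells of cluster 10 and all 324 of cluster 12 held a histone UMI, against 79.6% of resting DP cells (78.7 to 80.4) and 39.1% of SP cells (36.7 to 41.6). Before thinning, the shares in resting DP and SP were 97.0% and 88.2%, with medians of 2987 and 5713 UMIs per cell, and 47 and 2 cells too shallow to thin were left out.

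Linker histones took the largest place. H1f5 alone gave 89497 UMIs, 19.1% of the total, and the 5 genes with most UMIs (H1f5, H4c4, H1f4, H2ac8 and H1f3) gave 57.0%. In cycling clusters H1f5 reached 3484 CPM, followed by H1f4 at 1763, H1f3 at 742, H1f2 at 547 and H1f1 at 479 CPM. Among core histones the leading genes of each family in these clusters were H4c4 at 2293 and H4c8 at 265 CPM, H2ac8 at 1250 and Hist1h2ap at 849 CPM, H3c3 at 510 and H3c6 at 349 CPM, and H2bc11 at 347 and H2bc18 at 293 CPM. By family, summed, this came to 7097 CPM for H1, 3921 for H2A, 2851 for H4, 1519 for H2B and 1331 for H3. In all, 36 genes had 1000 or more UMIs, 22 had at least 100 but under 1000 and 5 had 20 to 99. These are UMIs of transcript ends and are not corrected for how often the transcripts of each gene carry a poly(A) stretch.

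The whole group was 8.39 times higher in cycling than in resting DP clusters (log2 3.07, 3.06 to 3.08), while the median of 14494 genes lay at -0.35 on the same log2 scale. H2A genes differed most, at 20.5 times, then H3 at 16.4, H2B at 9.21, H4 at 8.59 and H1 at 5.80 times. The small H1 value came with high resting levels: H1f4 stood at 503 CPM in resting DP, H1f2 at 254, H1f3 at 204 and H1f5 at 174 CPM, and H1 made up 63.1% of the histone UMIs of WT resting DP cells against 44.4% in WT cycling cells. The H1 genes thus ranged from 20.1 times for H1f5 and 13.8 times for H1f1 down to 3.63 for H1f3, 3.51 for H1f4 and 2.15 for H1f2. At the other end, H3c3 was 315 times higher in cycling clusters, with 42 UMIs in all resting DP cells, and H3c2 with 4 such UMIs was 335 times higher (log2 8.39, 7.20 to 10.4). H2ac10 was 207 times and H2ac4 62.0 times higher. H4c4, by contrast, kept 228 CPM in resting DP cells, 124 CPM in signalled DP and 105 CPM in SP. Of the 63 genes, 40 were 8 times or more higher in cycling clusters, 19 between 2 and 8 times and 4 under 2 times. The shares of all genes in these ranges were not taken.

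**Figure D2:**
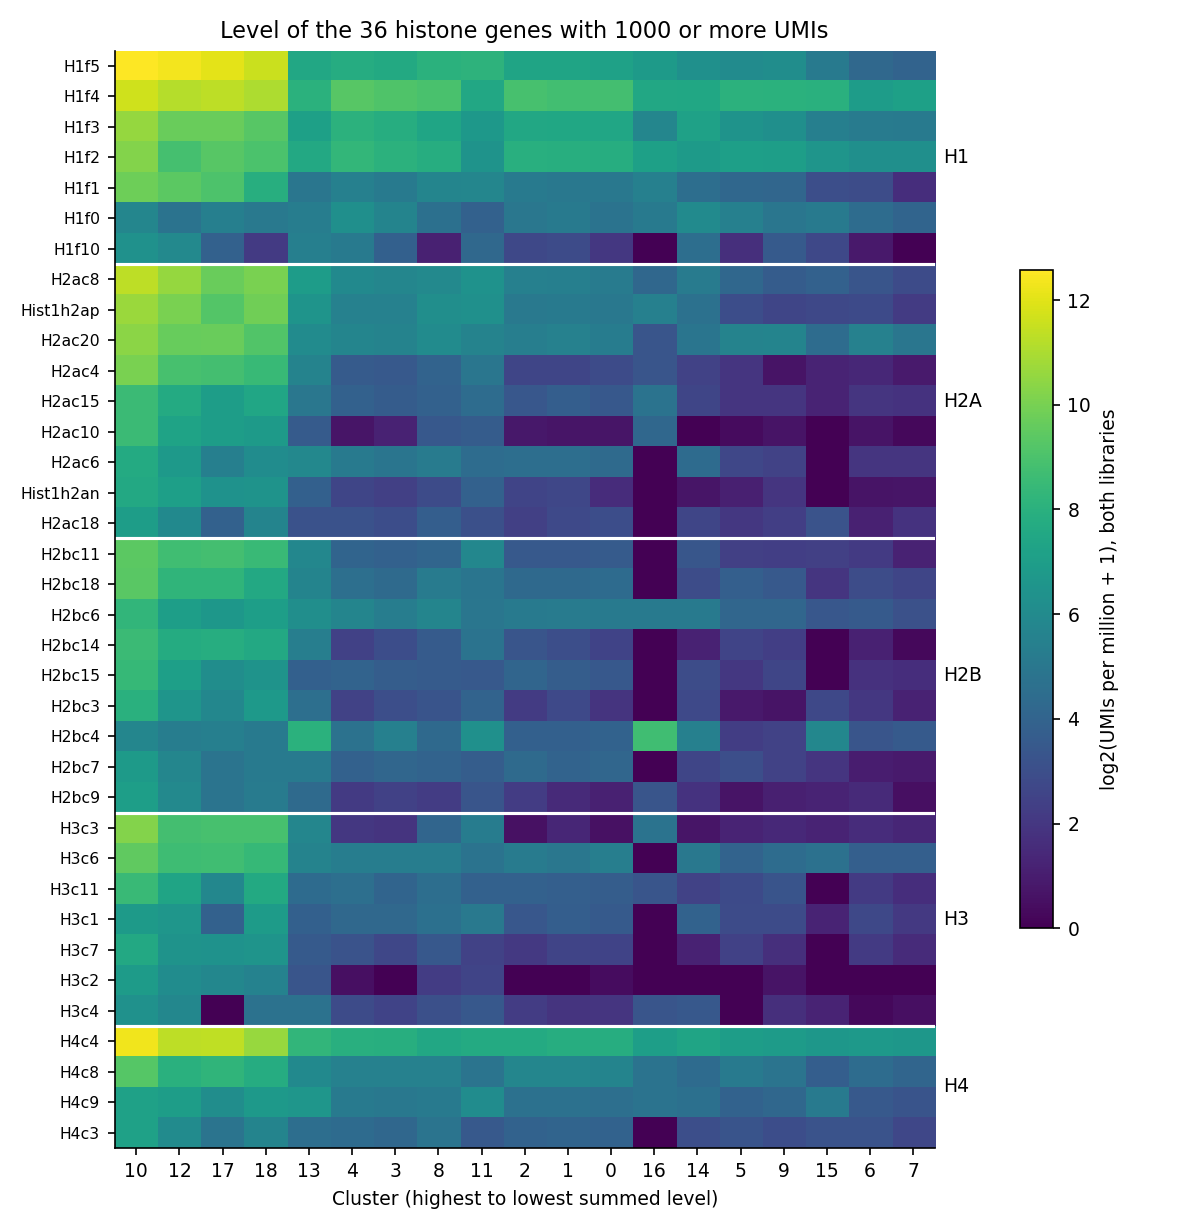
Level of the 36 histone genes with 1000 or more UMIs (rows, by family and then by total UMIs) in each of the 19 clusters (columns), as log2(CPM + 1) over both libraries. Nearly all rows are brightest in clusters 10, 12, 17 and 18, H1f4, H1f2, H1f3 and H4c4 stay bright in resting DP clusters, and H1f0 and H2bc4 follow another course.

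A few genes did not follow the group. Cluster 10 was the highest cluster for 55 of the 63 genes. Over the 19 clusters, which share their 2 libraries and differ in depth, the correlation of log2(CPM + 1) with the summed level had a median of 0.874 over the genes, and the lowest values were those of H1f0 (0.280), H2bc4 (0.301), H2bc21 (0.314), H3c15 (0.387) and H1f10 (0.592). H1f0, the linker histone of non-dividing cells, was 0.758 times as high in cycling as in resting DP clusters by CPM and had its highest level, 74.4 CPM, in resting DP cluster 4, the one with the highest histone level of that group. H2bc21 was likewise lower in cycling clusters, at 9.63 against 15.4 CPM. H2bc4 was highest in the macrophage-marked cluster 16, at 414 CPM, then in cluster 13 at 260 CPM and cluster 11 at 78.5 CPM, with 53.6 CPM in cluster 10. Cluster 16 is thinly covered, with 79 cells at a median of 759 UMIs, so its value rests on few UMIs. H1f10 was at 81.1 CPM in cluster 10, 42.6 in cluster 13 and 35.1 in cluster 4.

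The genes were also grouped by position and transcript end, which played no part in choosing them. In all, 52 of the genes lie on chromosome 13, 8 on chromosome 3 and 1 each on chromosomes 15 (H1f0) and 6 (H1f10), with H2ac5-ps not placed. On chromosome 13 (GRCm38), 22 genes lie in a block starting at 21715763 that holds H1f5 and 29 in a block starting at 23531050 that holds H1f4, H1f3, H1f2, H1f1 and H4c4. Hist1h2al, annotated as a processed pseudogene, lies apart at 51202727. It and H2ac5-ps, a pseudogene by its name, are counted among the 17 genes of H2A. The first block was 18.1 times and the second 6.43 times higher in cycling than in resting DP clusters, and the 8 genes of chromosome 3, led by H2ac20 and H2bc18, were 11.4 times higher. The distance from the stem-loop to the end of the transcript model was split at 300 bases after the data had been seen. In 15 genes with 300 or more bases after the stem-loop, H4c4, H1f4, H1f3 and H1f2 among them, the summed level was 6361 CPM in cycling and 1352 CPM in resting DP clusters, or 4.70 times, whereas in 26 genes with a shorter end it was 5053 and 263 CPM, or 19.2 times. The 22 genes with no stem-loop found, led by H1f5 and including H2ac5-ps, which has no model, lay between, at 5305 and 378 CPM, or 14.0 times. These longer models run past the site where the mRNA is usually cut, and whether the UMIs came from such longer transcripts was not tested.

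In 6 divergent pairs, an H2A and an H2B gene start within 500 bases of each other. H2ac8 and H2bc8, 180 bases apart across the promoter printed above, gave 31676 and 812 UMIs, and H2bc11 and H2ac11, 249 bases apart, gave 8777 and 639. H2ac15 and H2bc15, 164 bases apart, were close, at 4741 and 3840 UMIs. The larger of a pair exceeded the smaller by 1.21 to 39.0 times. Copies of these genes are alike. In the last 500 bases of the longest model, 44 of 62 genes hold a 60-base window that occurs in another histone gene. In 32 genes such windows are at least 50% of all. UMIs of genes such as Hist1h2ap (92.9% of windows) or H3c6 (73.0%) could thus be lost or divided between copies. H1f4 (99.1%, shared with 1 other histone gene) is another case, since the annotated span of H2bc6 overlaps it on the same strand. That span runs to 23621124, and the H1f4 transcript end lies at 23620629. UMIs in the overlap could likewise be lost or divided, and the values of all these genes are uncertain to that extent. H1f5, H1f3, H1f2, H1f1, H4c4, H2bc18 and H2bc6 hold no shared window in the last 500 bases of their longest models. Among all genes with 1000 or more UMIs (6960 searched), those whose level over the 19 clusters was most like the summed histones were Cdkn2c (Pearson r 0.945), a cyclin-dependent kinase inhibitor, Ube2t (0.901), a ubiquitin-conjugating enzyme of DNA repair, Esco2 (0.886), which acetylates cohesin in S phase, Cmc2 (0.883) and Faf1 (0.882). Top2a and Mki67 reached 0.791 and 0.735, Slbp 0.759 and Npat, the histone gene transcription factor, 0.351.

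Within the cycling cells the histone level varied along a score of S phase against G2 and M phase UMIs. The 1483 cells with at least 20 UMIs on S phase and G2 and M phase lists that hold no histone gene were put into 5 bins of equal size by the S share of those UMIs, which ran up to 8.70% in the lowest bin and from 44.4% to 74.2% in the highest. In WT the summed histone level was 15354 CPM in the lowest bin, 26116 in the next, then 20928, 17786 and 9186 CPM in the highest. KO cells gave 15271, 21941, 21341, 16926 and 8313 CPM in the same order. In each library the level was highest in the bin next to the lowest and was lowest where the S list took its largest share. The bins mix clusters of unlike histone level. The lowest bin held 162 cells of cluster 13 and 115 of cluster 10, and the highest 179 of cluster 11 and 97 of cluster 12. A bin is thus a range of the score, and its level depends on this mixture. Of the 640 cells left out for too few list UMIs, 582 were in cluster 8.

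Turning to WT against KO, the summed histone level in cycling clusters was 17513 CPM in WT and 16083 CPM in KO, a log2 KO/WT of -0.12 (-0.13 to -0.11), while the median of all 12684 genes tested there was 0.05. The difference was largest in linker histones and H3. H1 stood at 7772 CPM in WT and 6556 CPM in KO (-0.25, -0.26 to -0.23) and H3 at 1461 and 1228 CPM (-0.25, -0.28 to -0.22). H2B was at 1588 and 1463 CPM (-0.12, -0.15 to -0.09), and H2A hardly differed, at 3927 and 3916 CPM (-0.00, -0.02 to 0.01). H4 was the other way by CPM, at 2765 CPM in WT and 2920 CPM in KO (0.08, 0.06 to 0.10). It remained above 0 with TMM (0.04) and DESeq2 (0.03) scaling. Among clusters 10 to 13, H4 was above 0 in 10 (0.09), 12 (0.14) and 13 (0.54) and below 0 in 11 (-0.17, -0.29 to -0.05). In thinned cycling cells H4c4, the H4 gene with most UMIs, was not higher in KO, at a mean of 2.12 UMIs in WT and 2.05 in KO. The shares of cells holding it were 54.3% (50.8 to 57.7) and 53.5% (50.3 to 56.6). The H4 sum was not taken in thinned cells. H1 made up 44.4% of WT and 40.8% of KO histone UMIs, and H4 15.8% and 18.2%.

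**Figure D3:**
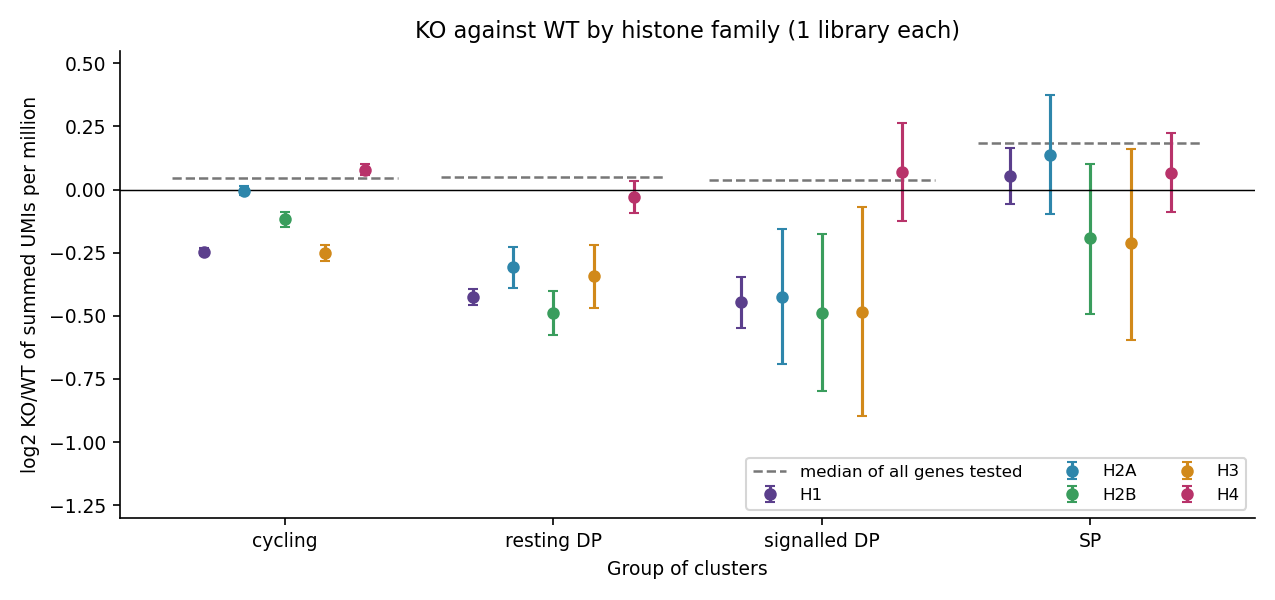
log2 KO/WT of the summed CPM of each histone family in the 4 groups of clusters, with exact 95% counting intervals, 1 library of each kind, and a dashed line at the median of all genes tested in the group. H1, H2B and H3 lie below 0 in cycling, resting DP and signalled DP clusters, with intervals that exclude 0, and H4 lies highest of the 5 families in those groups.

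Gene by gene, all 7 H1 genes with 100 or more UMIs in cycling clusters were lower in KO. Their values ran from -0.36 for H1f10 to -0.22 for H1f5, and no interval held 0. Of all 12684 genes tested there, which include genes with fewer UMIs, 40.1% had a value below 0. For the interval counts of H1, and of H4 below, no share over all genes was taken. Intervals are narrower for genes with more UMIs, and H1 genes are among those with most. H1f5 was at 3778 CPM in WT and 3248 CPM in KO, H1f4 at 1936 and 1623 (-0.25), H1f3 at 821 and 678 (-0.28), H1f2 at 614 and 492 (-0.32) and H1f1 at 529 and 439 CPM (-0.27). None of 10 H4 genes had an interval below 0 and 3 had one above it: H4c4 at 2231 CPM in WT and 2343 CPM in KO (0.07), H4c8 at 248 and 279 CPM (0.17) and H4c3 at 63.7 and 71.6 CPM (0.17). H2A genes were split. H2ac8 (1205 and 1286 CPM, 0.09) and Hist1h2ap (808 and 881 CPM, 0.12) were higher in KO, while H2ac20 (691 and 627 CPM, -0.14), H2ac15 (-0.22), H2ac10 (-0.23), H2ac4 (-0.07) and Hist1h2an (-0.42) were lower. Among H3 genes, H3c3 went from 590 CPM in WT to 445 CPM in KO (-0.41, -0.46 to -0.35), with H3c11 at -0.29, H3c1 at -0.26 and H3c6 at -0.17, whereas H3c2 (-0.01) and H3c7 (0.01) had intervals that held 0. H2bc18 was at 319 and 272 CPM (-0.23), with H2bc15 at -0.21, H2bc4 at -0.18, H2bc6 at -0.15 and H2bc14 at -0.11, and H2bc11 at 343 and 350 CPM (0.03, -0.03 to 0.09).

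Few of these differences reached the fold used here. The fold that a gene had to pass was a log2 KO/WT at a distance of 0.5 or more from the all-gene median of the same cells. In cycling clusters that held for 0 of 63 histone genes on the higher side, against 6.78% of all genes, and for 1, H3c15, on the lower side, against 4.3%, and H3c15 had 23 UMIs in WT and 18 in KO. The lower count was larger in 3 alternatives, with 12 genes in cells thinned to 1000 UMIs, 5 as the mean over cells and 4 without the 5% of cells with most UMIs, and the summed ratio was -0.24 in thinned cells and -0.22 as the mean over cells. The share over all genes was not taken in these alternatives, so their counts of genes cannot be set directly against that of the main setting. Counting intervals lay below 0 for 24 genes and above 0 for 6. No share over all genes was taken beside these counts, and intervals are narrower for genes with more UMIs. In the clusters that hold most histone UMIs the summed ratio was -0.11 (cluster 10) and -0.09 (cluster 12), and it was -0.45 in cluster 11 (2182 CPM in WT, 1596 CPM in KO) and -0.55 in the 52 cells of cluster 17. Cluster 8 gave 0.02, with an interval that held 0. In cluster 11 the median UMIs per cell were 12864 in WT and 17206 in KO, and in cluster 13 they were 5466 and 7032. The part of this difference in depth was not tested. In cluster 11, 25 of 48 genes were past the fold on the lower side, against 5.69% of all genes, and 0 on the higher side, against 8.2%, and the intervals of 14 of the 25 excluded 0. In cluster 13, 10 of 37 were past it on the higher side, against 10.2% of all genes, and 1 on the lower side, against 8.08%, and the intervals of 3 of the 10 excluded 0. By bins of the S share, H1 was lower in KO in each of the 5, with log2 ratios of -0.18, -0.39, -0.12, -0.19 and -0.25 from the lowest to the highest, and H4 was at 0.22, -0.05, 0.21, 0.22 and 0.02. With WT cells weighted to the bin shares of the KO cells, the summed ratio was -0.10. That value covers the binned cells only, which leave out most of cluster 8. Their unweighted ratio was not taken, so the part of the weighting in it is not known.

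**Figure D4:**
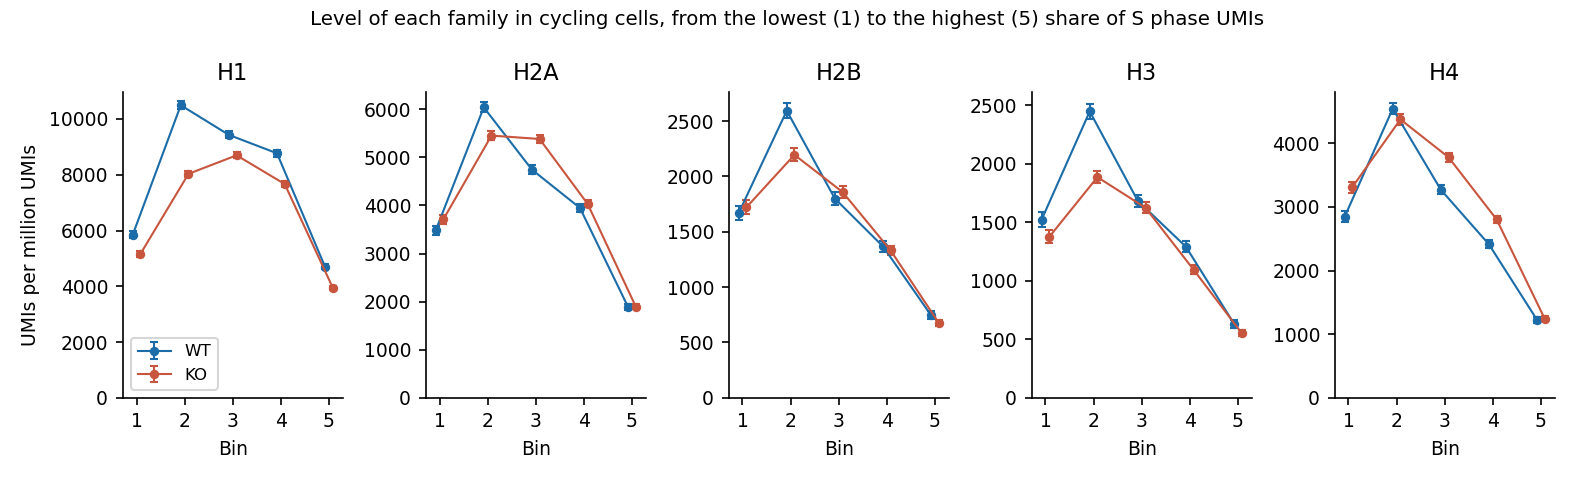
Level of each histone family (CPM) in cycling cells put into 5 bins from the lowest to the highest S phase share, WT in blue and KO in red, with exact 95% counting intervals. H1 is lower in KO in each bin, H4 is higher in KO in bins 1, 3 and 4, and each family is lowest in bin 5.

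Resting DP cells showed the larger relative difference. Their summed histone level was 2283 CPM in WT and 1789 CPM in KO, a log2 KO/WT of -0.35 (-0.38 to -0.33), with the median of 12983 genes at 0.05. It was below 0 in each of the 5 resting clusters, from -0.41 in cluster 3 (2557 and 1929 CPM) to -0.29 in cluster 0 (1971 and 1617 CPM), although these clusters come from the same 2 libraries. H2B was at 198 CPM in WT and 141 CPM in KO (-0.49), H1 at 1439 and 1070 CPM (-0.43), H3 at 92.8 and 73.2 CPM (-0.34), and H2A at 216 and 174 CPM (-0.31). H4 was at 336 and 329 CPM (-0.03, -0.09 to 0.03), its interval holding 0, but H4c4 gave most of these UMIs, and without it H4 was at 109 and 99.97 CPM (-0.13, -0.24 to -0.02). Markers of division did not move the same way: the S phase list was at 952 CPM in WT and 985 CPM in KO and the G2 and M phase list at 2571 and 2623 CPM. In resting DP cells with no Mki67 and no Top2a UMI, a choice made after seeing the data, the summed ratio was -0.36 (-0.38 to -0.33). Such UMIs are rare in these cells: in cluster 0 Mki67 was at 8.14 and Top2a at 14.1 CPM, at a median of 2719 UMIs per cell. The choice therefore leaves out few cells and could change the ratio little. The part of division in the difference was not tested.

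Of 53 histone genes with 20 or more UMIs in resting DP cells, 22, or 41.5%, were past the fold on the lower side, against 4.07% of all genes, and 1 on the higher side, against 6.29%. The exception was H4c1, with 14 UMIs in WT and 30 in KO. Intervals lay below 0 for 22 genes, 14 of them past the fold, and above 0 for none, with no share over all genes taken for these interval counts. Among the linker histones, H1f5 was at 209 CPM in WT and 149 CPM in KO (-0.49), H1f4 at 590 and 441 (-0.42), H1f3 at 240 and 179 (-0.42), H1f2 at 293 and 226 (-0.38) and H1f1 at 42.5 and 29.1 CPM (-0.55). H1f0, which is not tied to replication, was at 51.6 and 35.7 CPM (-0.53, -0.71 to -0.36). H1f10, the other such linker gene, was at 13.1 and 11.1 CPM (-0.23, -0.56 to 0.10), with an interval that held 0. H2bc4 had the lowest value of the well-covered genes, at 29.7 CPM in WT and 14.97 CPM in KO (-0.99, -1.24 to -0.74), and H2ac6 (-0.75), H2bc7 (-0.70), H2bc6 (-0.50) and H2bc15 (-0.53) were lower as well. H3c4 (-1.09) and H2bc3 (-0.87) rested on few UMIs, 62 and 41 in WT and KO for the one and 70 and 54 for the other. H4c4 was at 227 and 229 CPM (0.02, -0.06 to 0.09), H4c8 at 48.7 and 49.8 CPM (0.03), H4c9 at 30.8 and 25.2 CPM (-0.29, -0.51 to -0.08) and H2ac20 at 44.7 and 43.9 CPM (-0.03). H4c14 (58 and 47 UMIs, -0.80) and H4c12 (21 and 14 UMIs, -1.07) also had intervals below 0, so that 3 of 9 H4 genes did. In thinned cells, 83.4% of WT (82.2 to 84.6) and 76.5% of KO resting DP cells (75.3 to 77.8) held a histone UMI, while before thinning the shares were 97.1% and 97.0% at medians of 2823 and 3097 UMIs.

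**Figure D5:**
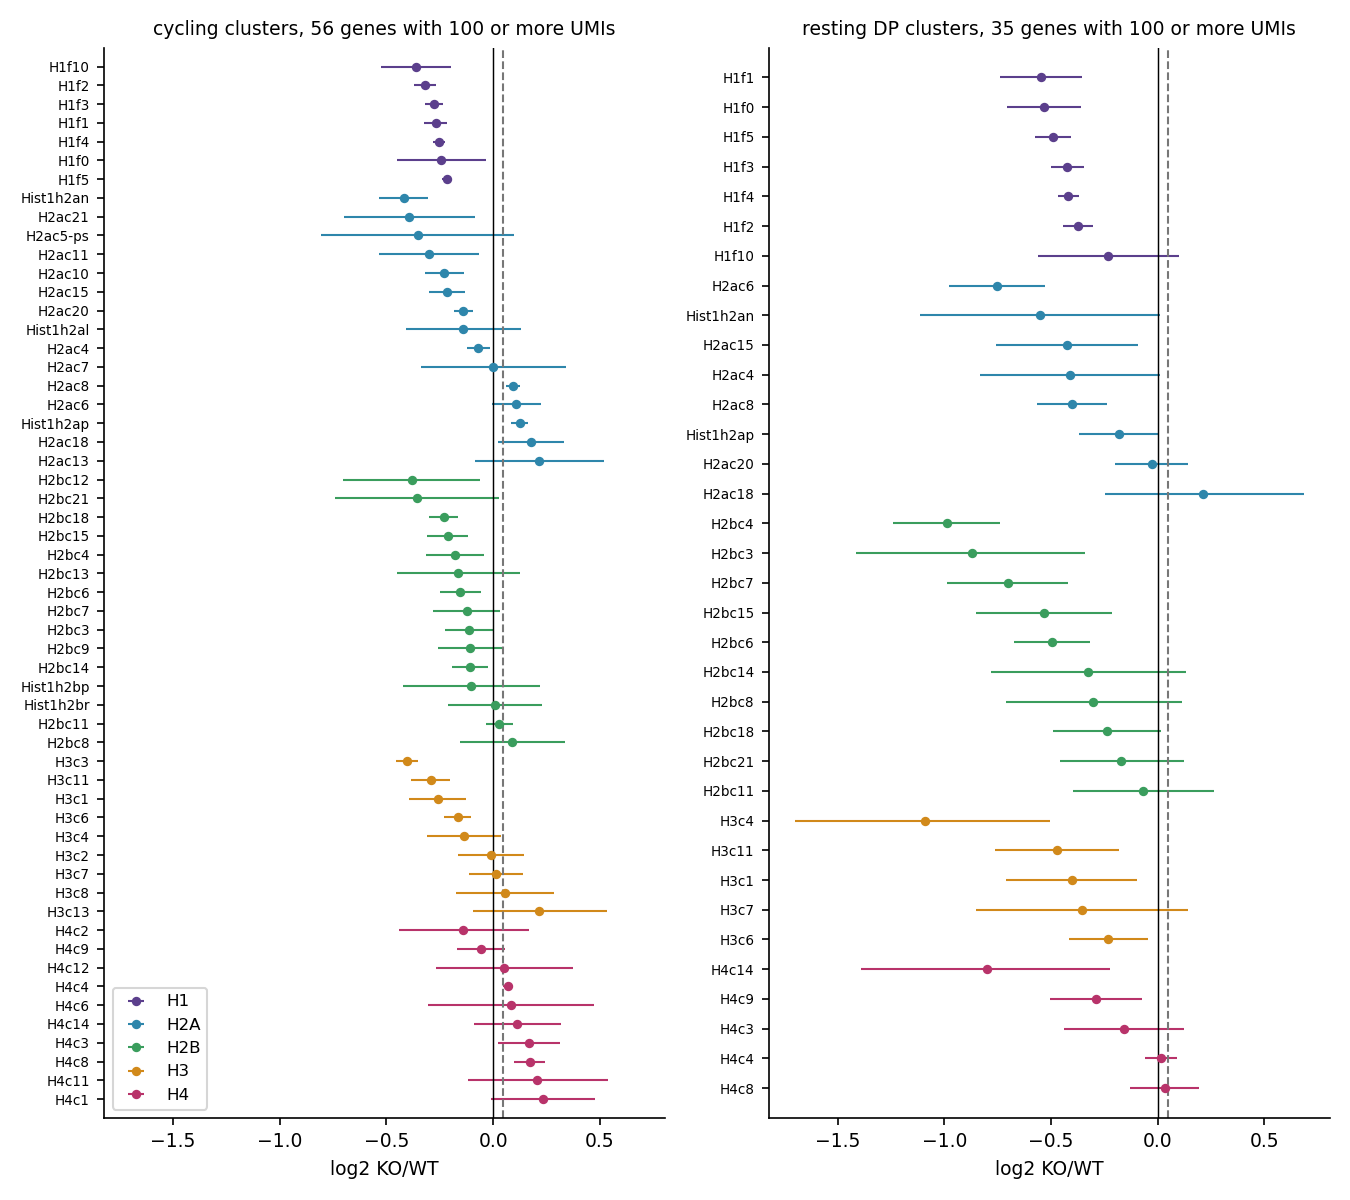
log2 KO/WT of single histone genes with 100 or more UMIs in the cycling clusters (left, 56 genes) and the resting DP clusters (right, 35 genes), colored by family, with exact 95% counting intervals, a solid line at 0 and a dashed line at the median of all genes tested. All 7 H1 genes lie left of 0 in each panel, and H4c4 and H4c8 lie at or right of 0.

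Signalled DP cells gave much the same ratio from fewer UMIs. The summed level was 1147 CPM in WT and 897 CPM in KO (-0.36, -0.44 to -0.28), H1 was at 735 and 539 CPM (-0.45) and H4 at 178 and 186 CPM (0.07, -0.12 to 0.26). Of the 27 genes tested, 14 (51.9%) were past the fold on the lower side, against 5.68% of all genes, among them H1f5 (89.0 and 55.3 CPM), H1f4 (324 and 233 CPM), H1f3 (102 and 73.7 CPM) and H1f0 (50.8 and 31.9 CPM). The intervals of 6 of the 14 excluded 0, those of H1f1 and H3c6 besides these 4, and 8 held it. On the higher side were 3, H3c7, H4c3 and H1f10, against 8.42%, each with an interval holding 0. In SP cells, the summed level was 550 CPM in WT and 565 CPM in KO (0.04, -0.04 to 0.12), but the median of all genes there was 0.18, and with TMM scaling the summed ratio was -0.14. The signs of H1, H2A and H4 in SP turned in the same way, so no direction is given. By CPM the SP clusters differed in sign, with cluster 6 at 0.20 (0.10 to 0.31) and cluster 7 at -0.12 (-0.24 to -0.003). Cluster 6 had 479 WT and 316 KO cells, and cluster 7 had 332 and 396. Past the fold in SP were 6 of 27 genes (22.2%) on the lower side, against 10.3% of all genes, and H2bc11 on the higher side, against 9.71%. H2bc4, at 12.1 and 6.75 CPM (-0.83, -1.53 to -0.18), was the gene of these whose interval excluded 0.

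Histone genes outside the naming rule were compared in the same cells. Of 9 variants in the matrix, H2az1, H2az2 and H2ax, which replace canonical H2A, H3f3a and H3f3b, which encode H3.3, macroH2A1 (Macroh2a1), H2aj and the centromeric Cenpa were covered well enough to compare, with Macroh2a2 too low. None of the 8 was past the fold in the cycling, resting DP, signalled DP or SP clusters. Among all genes, the higher and lower shares were 6.78% and 4.3% in cycling and 6.29% and 4.07% in resting DP clusters. They were 8.42% and 5.68% in signalled DP and 9.71% and 10.3% in SP clusters. At such shares, a count of 0 among 8 genes says little about the variants. Summed, the variants were at 14041 CPM in WT and 13033 CPM in KO cycling clusters (-0.11, -0.12 to -0.10) and at 8347 and 7872 CPM in resting DP (-0.08, -0.10 to -0.07). H2az1 was at 4303 CPM in cycling and 454 CPM in resting DP clusters, H2ax at 844 and 101 CPM, while H3f3b, at 2816 and 3472 CPM, was not higher in cycling cells. Of 30 genes for histone mRNA processing and histone chaperones, none was past the fold in cycling (30 tested) or resting DP clusters (29 tested), against the shares of all genes given above. On the lower side were 2 of 28 in signalled DP (Lsm10 and Sympk), against 5.68% of all genes, and 4 of 29 in SP (Asf1b, Chaf1a, Hat1 and Nap1l1), against 10.3%. Their sum was at 4901 CPM in WT and 4940 CPM in KO in cycling clusters (0.01, -0.01 to 0.03) and at 2492 and 2481 CPM in resting DP (-0.01, -0.03 to 0.02). Slbp was at 431 CPM in WT and 444 CPM in KO in cycling clusters. Asf1b, Chaf1a, Nasp and Nap1l1, which carry new histones to DNA, were at 170, 78.3, 431 and 605 CPM in cycling against 4.3, 2.5, 78.9 and 131 CPM in resting DP clusters.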

How the data were processed

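The authors aligned the reads with Cell Ranger (3.0.2, per the submitters' processing notes, which name mm10), processed cells in Seurat, and deposited UMI counts per gene and cell, not normalized, with cluster numbers at resolutions 1.5, 1.8 and 2. Cells outside 200 to 6000 genes, or above 50000 reads, had been dropped. The annotation release is not given in the sources used here. The library of each cell was read from WT or KO in its name, which carries Cdc45 in place of Cdc42. The UMIs of each gene were added up over the cells of a cluster in 1 library and divided by the total (CPM). log2 KO/WT was taken after adding 0.5 to each count, with exact conditional 95% intervals (scipy 1.17.1, checked on simulated data), and a gene needed 20 UMIs in the cells compared. Levels over 1 group carry exact Poisson intervals and shares of cells exact Clopper-Pearson ones. Any cell barcode can hold free RNA, and doublets were not removed, since Scrublet's own threshold (scanpy 1.11.5) marked 2 WT and 0 KO cells. Named genes were the 2 of most UMIs in each family, those with 1000 or more UMIs, those past the fold with 100 or more UMIs in cycling clusters, the variant and factor lists, and the 5 of most similar profile, and any other gene was named after its values were seen. Genes and lists were chosen with earlier results of these data known. edgeR 4.0.16 and DESeq2 1.42.0 served as alternative scalings.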

Additional observations from a re-analysis of the deposited data

Results flagged for a closer look

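The summed histone level was lower in KO in each of the 5 resting DP clusters, with log2 KO/WT from -0.41 to -0.29, but in 4 of the 19 clusters it was higher in KO, with an interval above 0. These were SP cluster 6 at 0.20 (551 CPM in WT, 635 CPM in KO), cycling cluster 13 at 0.19 (2515 and 2869 CPM), the B cell and dendritic cell-marked cluster 15 at 0.72 (564 and 928 CPM) and the small cycling cluster 18 at 0.14 (14256 and 15707 CPM). The differences between these clusters and the resting DP clusters were not tested, since each condition is 1 library. Cluster 15 has 63 WT and 87 KO cells with medians of 1202 and 4284 UMIs, and cluster 18 has 24 WT and 8 KO cells. These values are not shifted by the median of all genes, which was 0.18 in the SP clusters together. In cluster 13, where H4c4 was at 224 CPM in WT and 380 CPM in KO (0.76, 0.53 to 1.00) and H4c3 at 11.9 and 31.9 CPM, 10 of 37 genes were past the fold on the higher side, against 10.2% of all genes there, and 1 on the lower side. In cluster 11, the other cycling cluster of low histone level, 25 of 48 genes were past it on the lower side, against 5.69% of all genes, H1f5 (354 and 217 CPM) and H3c3 (48.6 and 28.1 CPM) among them.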

How the results depend on the processing

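No paired analysis was possible because each condition is 1 library. The cycling over resting DP ratio (3.07) was 3.13 with totals free of ribosomal protein and mitochondrial genes, 3.39 with TMM, 3.38 with DESeq2 factors, 2.74 as a mean over cells of their histone share, 2.94 in cells thinned to 1000 UMIs, 3.10 without cells over 10% mitochondrial UMIs, 3.04 without the cells of highest doublet score, 3.27 without the 5% of cells with most UMIs and 3.11 without cluster 8. The summed KO/WT ratio in cycling clusters (-0.12) was -0.16 with TMM, -0.17 with DESeq2 factors, -0.22 as the mean over cells, -0.24 in thinned cells, -0.14 without the cells with most UMIs, -0.10 with WT weighted to the KO bins (binned cells only, their unweighted ratio not taken), -0.10 without H1f5 and -0.11 without cluster 8. In resting DP (-0.35) it was -0.40 with TMM and -0.40 with DESeq2 factors, and in signalled DP it stayed within its interval in all 11 alternatives. In SP (0.04) it was -0.094 with totals free of ribosomal protein and mitochondrial genes, -0.14 with TMM, -0.17 with DESeq2 factors, 0.18 in thinned cells, and -0.058 at resolution 1.8 and -0.058 at resolution 2.

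Past the fold on the higher side in cycling clusters (0 genes) was 1 gene in thinned cells and 1 without the cells with most UMIs. On the lower side (1 gene) were 5 genes as the mean over cells, 12 in thinned cells, 4 without the cells with most UMIs and 0 with a minimum of 50 UMIs. The lower count in resting DP (22), and its alternatives, were added after the data were seen, and it was 13 in thinned cells and otherwise up to 26. For none of these alternative counts was the share over all genes taken, so a change in count may hold for all genes as well. The median over genes in cycling clusters (-0.11) ranged from -0.21 to -0.10. Leaving out cluster 8, each resting DP cluster in turn, or cells with a Mki67 or Top2a UMI was also chosen after the data were seen. The causes were not tested. With 1 pooled library of each kind, the genotype, the pooled mice and the library cannot be told apart.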
